A study of Homo sapiens with 6 samples.

Results

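J-domain proteins, BAG proteins and small heat shock proteins work beside the HSP70 chaperone, and heat shock factors help to control how much of it a cell makes. The genes of these classes were taken by symbol from the table of 15651 genes. The symbols were every DNAJA, DNAJB and DNAJC gene, BAG1 to BAG6, every HSPB gene with a number, and HSF1, HSF2 and HSF4. This gave 51 genes, after 3 symbols with a hyphen (antisense transcripts) were dropped. They comprise 3 DNAJA, 9 DNAJB, 26 DNAJC, 6 BAG, 4 HSPB and 3 HSF genes. All 51 except DNAJC12 passed the filter on low values and were tested, so 50 genes carry a test result.

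The 6 libraries hold RNA of MDA-MB-231, a human cell line of triple-negative breast cancer (TNBC). Cells in 3 of them received DMSO, the solvent, and cells in the other 3 received BRL-50481, an inhibitor of the cAMP-degrading phosphodiesterase PDE7A. The treatment protocol of the labels gives 50 μM for 72 h, whereas their treatment tag gives 5 μM and 48 h. The labels describe mRNA selected with oligo-dT, and the series record describes depletion of ribosomal RNA. Both groups are 1 cell line without any genetic change, and the study counts the replicates as biological. Values are normalized counts, which are the reads of a gene scaled for the depth of its library, and the libraries hold 30750573 to 33446984 reads on genes. DMSO replicate 1 stood farthest from its group, with a within-group SD of 0.141 on the log2 scale against 0.0791 to 0.119 in the other libraries. The markers listed as high in this line, VIM, CD44 and EGFR, had at least 56075, 30982 and 6018 normalized counts in every library, and all 3 were higher in BRL-50481 (log2 fold changes of 0.58, 0.47 and 0.73). Of the luminal and epithelial markers, PGR had at most 7.75 normalized counts and was not tested, whereas ERBB2 (means of 1677 and 1914 in DMSO and BRL-50481), EPCAM (764.3 and 682.5) and GATA3 (188.8 and 278.0) were present, and CDH1 (38.2 and 99.8) and FOXA1 (43.6 and 21.0) were low. In BRL-50481, CDH1 (1.39), GATA3 (0.57) and ERBB2 (0.19) were higher and FOXA1 (−1.02) and EPCAM (−0.16) were lower on the log2 scale, and the part of these markers in the results was not tested. In bulk RNA, fewer cells of one state and less RNA per cell cannot be told apart.

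A J domain is a short helical module that makes HSP70 hydrolyse ATP and so clamp onto an unfolded protein. DNAJA and DNAJB proteins bring clients to HSP70, whereas many DNAJC proteins carry the J domain to one organelle, vesicle or RNA machine. BAG proteins release ADP from HSP70 and let the client go, and small heat shock proteins hold unfolded proteins without ATP. HSF1 drives transcription of many of these genes under protein stress by binding repeats of nGAAn in their promoters, called heat shock elements, and cancer cells often keep this program active.

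Promoter windows of RefSeq on GRCh38.p14 (250 bases before the start site and 50 after it) were found for 45 of the 51 genes and searched on both strands for 4 motifs. A 2-unit heat shock element (GAANNTTC or TTCNNGAA) was present in 13.5% of all 35116 windows. At the level of genes, it was present in a window of 14% of the 10958 tested genes that had one, of 12.9% of those that were lower in BRL-50481 and of 15.2% of those that were higher. Among the tested genes described here, 10 of 44 (22.7%) had it, among them 7 of the 20 that were lower and 1 of the 9 that were higher. The stretches of these 8 genes before a RefSeq start site are shown because they are the genes with the motif whose transcripts changed. Capitals mark the matches.
DNAJB1 (chr19:14518413-14518498, minus strand): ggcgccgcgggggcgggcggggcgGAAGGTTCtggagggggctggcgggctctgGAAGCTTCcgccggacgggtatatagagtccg
DNAJA1 (chr9:33025051-33025106, plus strand): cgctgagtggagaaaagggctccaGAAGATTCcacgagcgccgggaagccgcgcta
DNAJB6 (chr7:157336849-157336909, plus strand): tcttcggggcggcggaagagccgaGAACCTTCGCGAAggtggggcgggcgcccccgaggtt
DNAJB4 (chr1:78004817-78004872, plus strand): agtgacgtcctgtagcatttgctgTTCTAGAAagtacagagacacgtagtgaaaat
HSPB8 (chr12:119178819-119178874, plus strand): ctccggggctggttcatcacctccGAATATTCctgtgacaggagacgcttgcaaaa
HSPB1 (chr7:76302467-76302522, plus strand): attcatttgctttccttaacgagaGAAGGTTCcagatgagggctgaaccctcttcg
BAG2 (chr6:57172178-57172233, plus strand): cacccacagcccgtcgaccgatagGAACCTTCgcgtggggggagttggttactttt
DNAJC15 (chr13:43023373-43023428, plus strand): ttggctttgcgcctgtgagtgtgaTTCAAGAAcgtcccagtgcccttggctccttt

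The DNAJB1 stretch holds a pair of matches, 77 and 47 bases before one of its RefSeq start sites. A gene can have several start sites. The stretches of DNAJB1, DNAJB4, DNAJB6, HSPB8 and DNAJC15 lie inside the GENCODE span of their gene. DNAJB6 holds a full 3-unit element (GAA, TTC and GAA, each 2 free bases apart, which contains both 2-unit forms), seen in 0.49% of all windows, and DNAJA1 holds another just after its start site. DNAJC15 is the gene among these 8 that was higher. The median log2 fold change was −0.57 over the 10 genes with a 2-unit match and −0.09 over the 34 without one, given as a description with no test. The ER stress response element (CCAAT and CCACG with a fixed spacer) was not found in these windows and was present in 0.0769% of all windows. The cAMP response element (TGACGTCA, 1.85% of all windows) was found in DNAJC27, 38 bases before one of its start sites. This is 1 of the 44 tested genes described here (2.27%). At the level of genes, it was present in 3.61% of all tested genes, 4.6% of those lower and 2.99% of those higher. DNAJC27 was higher, and its call was lost without BRL-50481 replicate 1. A match of letters does not show that a factor binds there.

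Transcripts of 22 of the 50 genes tested were lower in the BRL-50481 libraries and those of 9 were higher, at an adjusted p-value under 0.05 (limma, adjusted over all 15246 genes tested). This is 44% lower and 18% higher, where 58.7% of all genes tested were called, 29.8% as lower and 28.9% as higher. The median log2 fold change was −0.14, against 0.01 over all genes. A fall by over 1 on the log2 scale was seen in HSPB8 and DNAJB1, that is in 4% of the tested genes against 2.98% of all genes. The largest rise that was called was 0.70, in DNAJC13, whereas 5.06% of all genes were called higher by over 1. The treated libraries lay wholly below the DMSO libraries in 25 genes (50%, against 32.3% of all genes) and wholly above them in 10 (20%, against 31.9%), where 64.2% of all genes lay apart in one direction or the other. In the DNAJA, DNAJB, BAG and HSPB classes 15 genes were lower and 2 higher, whereas the DNAJC genes were split between 6 lower, 7 higher and 12 that did not pass, with a median of 0.02. With a correction for transcript length and GC content, 11 DNAJC genes were lower and the median was −0.16. The same correction raised the lower calls over all genes, to 5485 of 14736 against 4546 of 15246, and moved their median to −0.036. That DNAJC differs from the other classes was not tested.

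**Figure D1:**
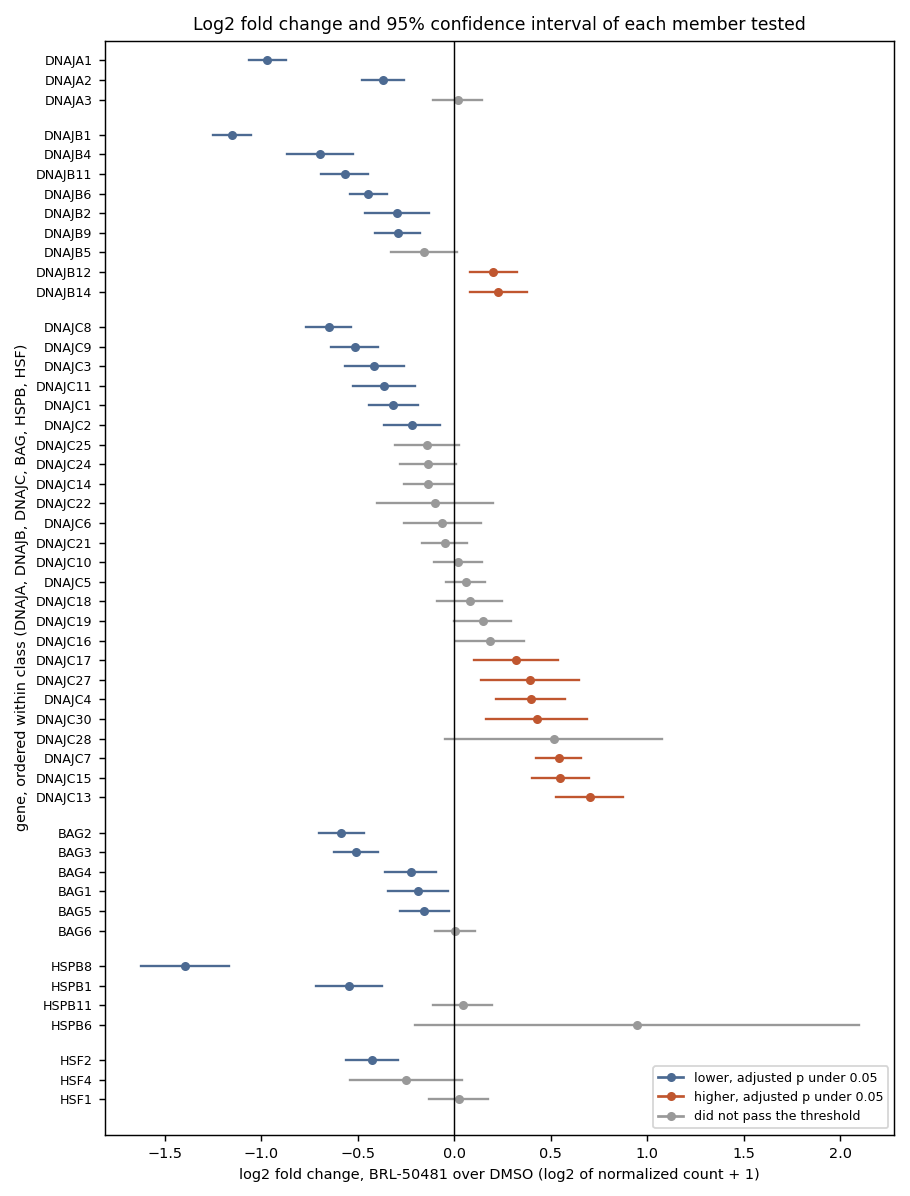
Log2 fold change (x axis, BRL-50481 over DMSO, log2 of the normalized count with 1 added) of the 50 genes tested, grouped by class on the y axis, with 95% confidence intervals from limma as lines. HSPB8 at −1.40 and DNAJB1 at −1.15 lie farthest to the left, DNAJC genes lie on both sides of 0, and HSPB6 has the widest interval.

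The summed normalized count of the 3 DNAJA genes was 13311, 13595 and 13499 in the DMSO libraries and 8753, 8454 and 8418 in the BRL-50481 libraries, so that 63.4% of the DMSO mean was left. The 9 DNAJB genes summed to 33481, 34481 and 34292 and then to 22607, 22616 and 22766, or 66.5%. The 26 DNAJC genes stayed at 96.1% of the DMSO mean, the BAG genes at 88.3%, the HSPB genes at 72.5% and the HSF genes at 93.2%. In these sums, DNAJA and DNAJB transcripts were the ones that fell most. The libraries of the groups lay apart in every class except HSF, so this separation is not particular to DNAJA and DNAJB. A sum is led by its most abundant genes, which are DNAJA1 for DNAJA, and DNAJB1 and DNAJB6 for DNAJB. The BAG sum is led by BAG6, which had means of 14632 in DMSO and 14668 in BRL-50481 and did not pass. BAG2 and BAG3 were left at 66.7% and 70.1% of their DMSO means.

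**Figure D2:**
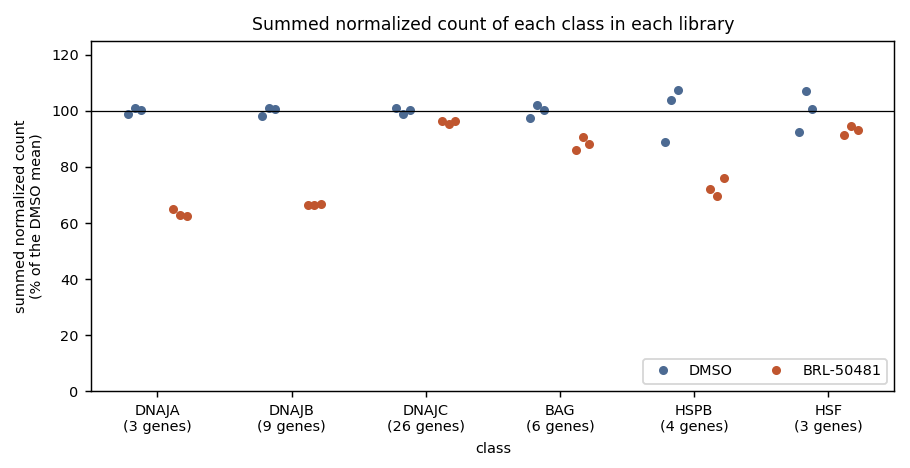
Summed normalized count of each class (x axis, with the number of genes) in each library, as a percentage of the mean of the DMSO libraries (y axis), with 1 point for each library. The DNAJA and DNAJB sums of the BRL-50481 libraries lie near 63.4% and 66.5%, and the DNAJC sums near 96.1%.

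DNAJB1, the best known HSP40 and the main stress-induced partner of HSP70 (chromosome 19 of hg38, 14514769 to 14560391), had 12866, 13725 and 13161 normalized counts in DMSO and 5869, 6010 and 5985 in BRL-50481. Every treated library held less than the lowest DMSO library, and 44.9% of the DMSO mean was left (log2 fold change −1.15, SE 0.0450, adjusted p = 1.37e-09). DNAJA1, a cytosolic J protein with a lipid anchor (chromosome 9, 33025273 to 33039907), had 8495, 8665 and 8609 normalized counts in DMSO and 4494, 4311 and 4352 in BRL-50481. It was left at 51.1% (log2 fold change −0.97, SE 0.0447, adjusted p = 3.74e-09). Both genes carry the heat shock elements printed above or just after a start site. DNAJA2, the constitutive relative of DNAJA1, had 3240, 3236 and 3339 normalized counts in DMSO and 2591, 2521 and 2481 in BRL-50481, a smaller fall (log2 fold change −0.37, SE 0.0494, adjusted p = 2.94e-05). The intervals of DNAJA1 (−1.07 to −0.87) and DNAJA2 (−0.48 to −0.26) did not overlap. DNAJA3, the mitochondrial member of the class, had a log2 fold change of 0.02 with an interval of −0.11 to 0.14 and did not pass the threshold.

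DNAJB4, a close relative of DNAJB1, had 1010, 892.4 and 961.2 normalized counts in DMSO and 636.2, 587.2 and 543.8 in BRL-50481 (log2 fold change −0.70, SE 0.0793, adjusted p = 7.15e-06). The groups lay apart, although exons of GIPC2 overlap those of DNAJB4 on the same strand. DNAJB6, which keeps polyglutamine and other aggregation-prone proteins soluble, had 8416, 8447 and 8726 normalized counts in DMSO and 6127, 6327 and 6315 in BRL-50481 (log2 fold change −0.45, SE 0.0444, adjusted p = 2.21e-06). DNAJB2, a neuronal J protein with ubiquitin-interacting motifs, was measured at 1266, 1534 and 1426 and then at 1105, 1223 and 1102 normalized counts (log2 fold change −0.30, SE 0.0768, adjusted p = 0.00464). Its highest treated library came close to the lowest DMSO library without overlap. DNAJB5 had a log2 fold change of −0.16 and did not pass (adjusted p = 0.106), although its groups did not overlap.

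Counted per kilobase of the canonical GENCODE transcript, which may not be the isoform these cells use, the level of DNAJB1 was 5910 ± 195 normalized counts in DMSO, above that of DNAJA1 (3704 ± 37.3) and DNAJB6 (3427 ± 68.7; SD, n = 3 each). In BRL-50481, DNAJB1 had 2656 ± 33.6, DNAJB6 2513 ± 45.0 and DNAJA1 1891 ± 41.4 normalized counts per kilobase. DNAJB1 was thus the most abundant J-domain transcript per length in both groups, with a smaller lead over DNAJB6 after treatment. The TPR protein DNAJC7, which binds HSP70 and HSP90 and recycles clients between them, went from 1495 ± 76.3 to 2174 ± 67.7 on this per-length scale and passed DNAJA1.

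**Figure D3:**
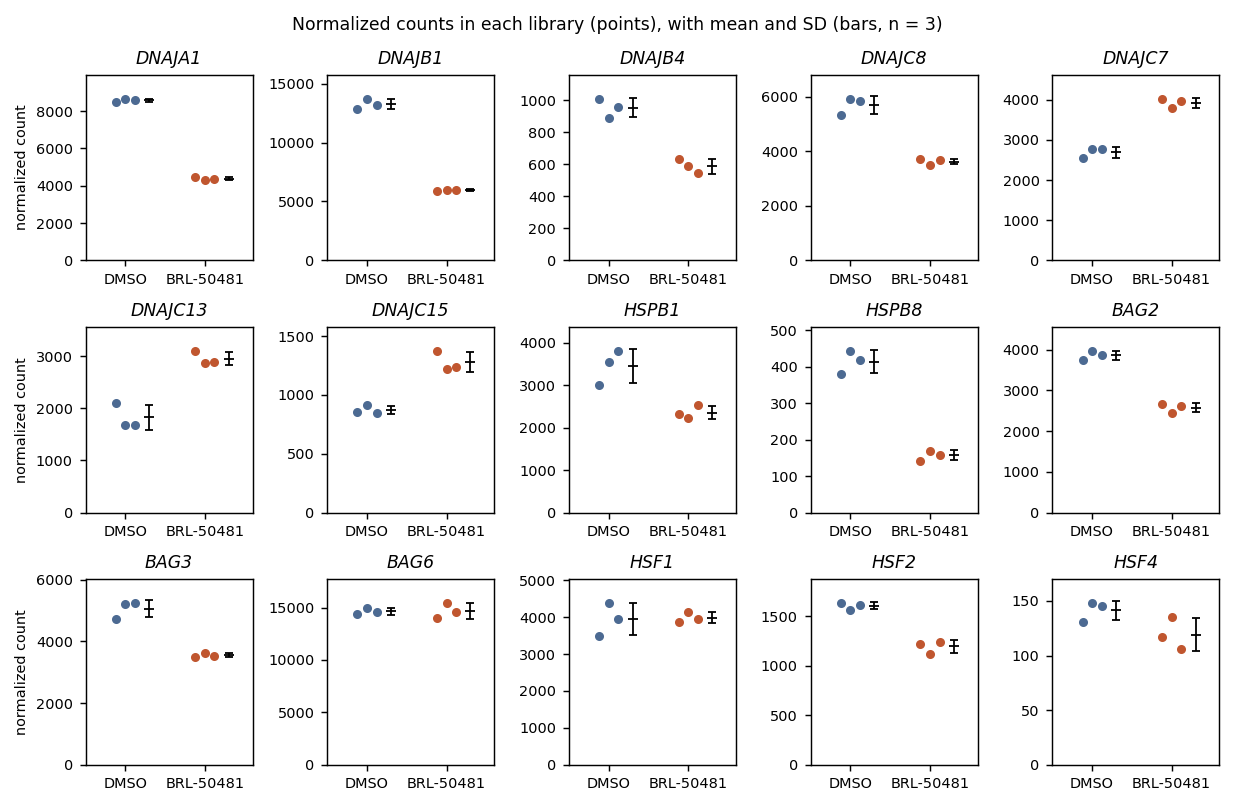
Normalized counts (y axis, from 0) of 15 genes in each library (x axis, DMSO and BRL-50481), with 1 point for each library and the mean and SD beside them (n = 3 each). DNAJA1, DNAJB1 and HSPB8 show the widest gaps downwards, DNAJC7, DNAJC13 and DNAJC15 lie higher in BRL-50481, and BAG6, HSF1 and HSF4 overlap between the groups.

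The J-domain genes were also read by where their proteins work. The lists were chosen with earlier results of these data known and do not cover every J-domain gene. J proteins of RNA and ribosomes were listed apart, and DNAJC24, DNAJC27 and others are in no list. The counts therefore hold for the listed genes only. Over all genes tested, 29.8% were lower and 28.9% were higher. Whether the counts of a compartment differ from these shares was not tested. Of the 9 tested genes listed for cytosolic and nuclear J proteins, 7 were lower and 1, DNAJC7, was higher (median log2 fold change −0.45). Besides the DNAJA and DNAJB genes above, DNAJC9 belongs here, a J protein that chaperones histones H3 and H4. It had 2681, 2948 and 2941 normalized counts in DMSO and 1993, 1982 and 2004 in BRL-50481 (log2 fold change −0.52, SE 0.0552, adjusted p = 4.11e-06). DNAJC7 moved the other way, from 2540, 2781 and 2776 to 4026, 3789 and 3961 normalized counts (chromosome 17, 41976421 to 42021376; log2 fold change 0.54, SE 0.0545, adjusted p = 2.5e-06). All treated libraries of DNAJC7 lay above all DMSO libraries.

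Of the 10 genes for J proteins of the endoplasmic reticulum (ER), 4 were lower, 2 were higher and 4 did not pass, with a median of −0.06. These counts stand beside 29.8% lower and 28.9% higher over all genes tested. The lower genes of this list were those for DNAJB11, DNAJB9, DNAJC3 and DNAJC1, which assist the ER chaperone BiP. DNAJB11 had 3817, 4167 and 4199 normalized counts in DMSO and 2816, 2611 and 2790 in BRL-50481 (log2 fold change −0.57, SE 0.0560, adjusted p = 2.1e-06), and an unnamed GENCODE gene overlaps its exons on the same strand. DNAJB9, which holds the stress sensor IRE1 in check, had 2123, 2012 and 2128 normalized counts and then 1723, 1704 and 1682 (log2 fold change −0.29, SE 0.0537, adjusted p = 0.000412). DNAJC3, an ER cochaperone also known as P58IPK, fell by 0.41 on the log2 scale and DNAJC1 by 0.32. DNAJB12 (0.20) and DNAJB14 (0.23) were higher, and these are membrane-anchored J proteins that help to clear misfolded membrane proteins. Neither call held throughout, since DNAJB14 was at 0.075 with the length and GC correction (adjusted p = 0.116) and lost its call in 1 fit that left out a library, and DNAJB12 lost its call in 2 such fits. DNAJC10, an ER disulfide reductase, was at 0.02 with an interval of −0.10 to 0.15. With the same correction it was at −0.34 (adjusted p = 1.55e-05), and its canonical transcript is 20144 bases long.

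Of the 5 genes for mitochondrial J proteins, 2 were higher and 1 was lower, with a median of 0.15. Over all genes tested, the shares were 28.9% higher and 29.8% lower. DNAJC15, which sits at the import motor of the inner membrane, had 855.3, 913.9 and 844.8 normalized counts in DMSO and 1374, 1221 and 1236 in BRL-50481 (log2 fold change 0.55, SE 0.0687, adjusted p = 1.64e-05). Its paralog at the same motor, DNAJC19, was at 0.15 and did not pass (adjusted p = 0.0841). DNAJC30, a mitochondrial J protein that acts in respiratory chain upkeep, went from 171.7, 180.2 and 163.4 to 249.7, 251.8 and 196.8 normalized counts (log2 fold change 0.43, SE 0.121, adjusted p = 0.00829), with treated replicate 3 nearest to DMSO. DNAJC11, a partner of the complex that shapes the cristae, was lower (−0.37, SE 0.0743, adjusted p = 0.000912).

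Among the 4 genes for J proteins of RNA and ribosomes, DNAJC8, which associates with the spliceosome, fell most of all DNAJC genes. It had 5326, 5918 and 5839 normalized counts in DMSO and 3699, 3500 and 3660 in BRL-50481, with 63.6% of the DMSO mean left (log2 fold change −0.65, SE 0.0537, adjusted p = 4.34e-07). DNAJC2, which sits on the ribosome with HSPA14, fell by 0.22 on the log2 scale, and the splicing-linked DNAJC17 rose by 0.32. The call of DNAJC17 was lost in 4 of the 16 alternatives and that of DNAJC2 in 1. DNAJC21, a factor for the large ribosomal subunit, was at −0.05 and did not pass.

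Of the 3 genes for vesicle J proteins, DNAJC13, which removes clathrin from endosomes, had the largest rise among all genes called here. It was measured at 2111, 1690 and 1675 normalized counts in DMSO and 3102, 2868 and 2899 in BRL-50481, which is 162% of the DMSO mean (chromosome 3, 132417502 to 132539032; log2 fold change 0.70, SE 0.0807, adjusted p = 7.74e-06). DMSO replicate 1 was its highest control library, and without it the log2 fold change was 0.81. DNAJC5, the synaptic vesicle J protein (0.06), and DNAJC6, the clathrin-uncoating auxilin (−0.06), did not pass. Outside these lists, DNAJC4 (0.40, with NUDT22 exons overlapping on the same strand) and DNAJC27 (0.39), a small GTPase with a J domain, were higher. The remaining DNAJC14, DNAJC22, DNAJC24 and DNAJC28 did not pass, and DNAJC12 was left untested at 0 to 4.90 normalized counts.

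**Figure D4:**
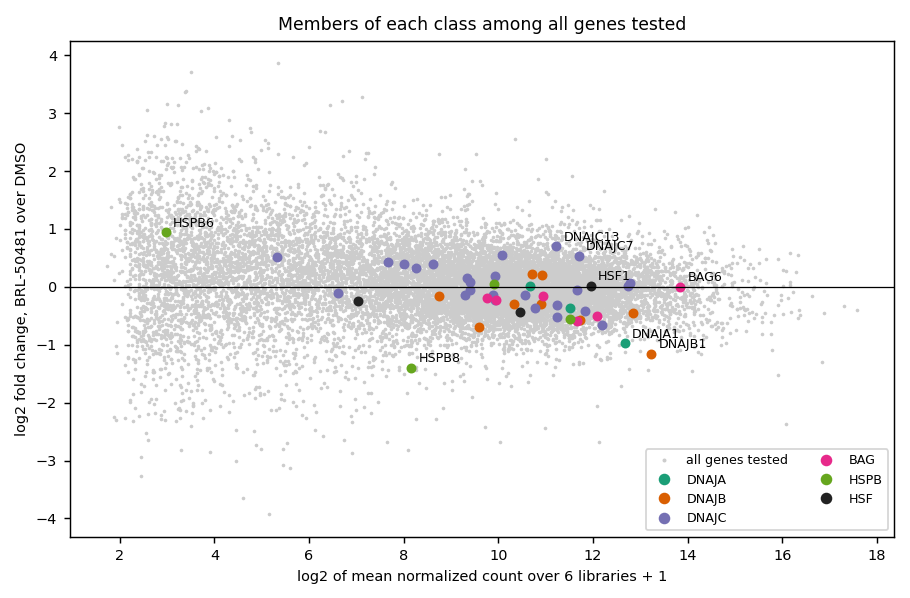
Log2 fold change (y axis, BRL-50481 over DMSO) against the log2 of the mean normalized count over the 6 libraries with 1 added (x axis), for all 15246 genes tested in grey and the 50 genes described here in colour by class. DNAJB1 and DNAJA1 lie below most genes of like abundance, and BAG6 and HSF1 lie near 0.

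Of the BAG genes, 5 were lower and BAG6 did not pass, with a class median of −0.21. Over all genes tested, 29.8% were lower and 28.9% higher, with a median of 0.015, and whether the class differs from this was not tested. The calls of BAG1 and BAG5 did not hold throughout. BAG2, which binds HSP70 and inhibits the ubiquitin ligase STUB1, had 3739, 3968 and 3871 normalized counts in DMSO and 2664, 2442 and 2616 in BRL-50481 (chromosome 6, 57172326 to 57189833; log2 fold change −0.58, SE 0.0534, adjusted p = 1.06e-06). BAG3, the stress-induced BAG protein that works with HSPB8 in the selective autophagy of damaged proteins, had 4743, 5222 and 5243 and then 3509, 3636 and 3522 normalized counts (chromosome 10, 119651380 to 119677819; log2 fold change −0.51, SE 0.0530, adjusted p = 3.25e-06). In both genes the treated libraries lay together well below the DMSO libraries.

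The other BAG genes moved less. BAG4, an inhibitor of death receptor signalling, had 1083, 1036 and 1058 normalized counts in DMSO and 920.1, 909.6 and 888.8 in BRL-50481 (log2 fold change −0.23, SE 0.0612, adjusted p = 0.00647). BAG1, the founding member, had 851.3, 977.6 and 944.9 and then 801.3, 786.7 and 840.4 (−0.19, SE 0.0719, adjusted p = 0.0366), and BAG5 had 2213, 1972 and 2049 and then 1893, 1830 and 1868 (−0.16, SE 0.0583, adjusted p = 0.0348). The calls of BAG1 and BAG5 were each lost in 7 of the 16 alternatives, among them 5 of the 6 that left out 1 library, where the largest adjusted p was 0.122 for BAG1 and 0.115 for BAG5. Without BRL-50481 replicate 1, 2 or 3, or without DMSO replicate 3, 3 BAG genes were called lower in place of 5. BAG6, which handles membrane proteins that miss their target, was the most abundant BAG transcript per length, with 14339, 14990 and 14566 normalized counts in DMSO and 13983, 15416 and 14606 in BRL-50481. The groups overlapped and the interval of its log2 fold change was −0.10 to 0.11.

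Among the HSPB genes, HSPB8 had the largest fall of all genes described here, and HSPB1 also fell. HSPB8, the partner of BAG3 (chromosome 12, 119171555 to 119224855), had 381.0, 442.8 and 416.8 normalized counts in DMSO and 141.9, 169.2 and 159.0 in BRL-50481, with 37.9% of the DMSO mean left (log2 fold change −1.40, SE 0.106, adjusted p = 2.18e-07). HSPB1, known as HSP27 (chromosome 7, 76302673 to 76304295), had 3013, 3535 and 3802 and then 2316, 2215 and 2528 normalized counts (log2 fold change −0.55, SE 0.0792, adjusted p = 5.84e-05). DMSO replicate 1 was the lowest control for both genes and still lay above every treated library. HSPB11, which RefSeq and GENCODE name IFT25, a subunit of intraflagellar transport in cilia, had 875.1, 1011 and 937.7 and then 995.6, 947.8 and 961.5 (0.04, adjusted p = 0.618). HSPB6, mainly a muscle gene, was near the detection limit at 2.98, 2.94 and 7.15 normalized counts in DMSO and 13.1, 10.1 and 4.85 in BRL-50481. Its log2 fold change of 0.95 had an interval of −0.21 to 2.10, so a change of either sign could not be told at this depth.

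Of the heat shock factors, HSF2 was lower, while HSF1 and HSF4 did not pass the threshold. HSF1 had 3499, 4381 and 3959 normalized counts in DMSO and 3867, 4140 and 3965 in BRL-50481, so that all treated libraries lay within the range of the DMSO libraries (log2 fold change 0.02, interval −0.13 to 0.17, adjusted p = 0.812). HSF2, which can join HSF1 in mixed trimers (chromosome 6, 122399551 to 122433119), had 1633, 1565 and 1617 and then 1222, 1121 and 1243 normalized counts, 74.5% of the DMSO mean (log2 fold change −0.43, SE 0.0614, adjusted p = 5.63e-05). HSF4, the factor of the lens, had 131.0, 147.9 and 145.0 and then 116.8, 135.0 and 105.7 normalized counts (−0.25, interval −0.54 to 0.04, adjusted p = 0.129), and an unnamed GENCODE gene overlaps its exons. HSBP1, a small protein that binds HSF1 trimers, went from 4347 ± 60.0 to 2688 ± 102 normalized counts (log2 fold change −0.69, SE 0.0501, adjusted p = 1.38e-07; SD, n = 3 each). mRNA levels do not report on the activity of HSF1, which is set at the protein.

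The chaperones served by these genes were read from 3 further lists. For comparison, 29.8% of all genes tested were lower and 28.9% were higher. In the HSP70 family, 8 of 11 tested genes were lower, with a median of −0.54, and HSPA8, the constitutive HSP70, went from 116190 ± 1521 to 22609 ± 264.5 normalized counts (log2 fold change −2.36). Of 10 HSP70 partners other than BAG genes, 7 were lower (median −0.39). They were led by the HSP110 gene HSPH1 (−1.42), its relative HSPA4L (−0.77) and the mitochondrial exchange factor GRPEL1 (−0.71), with STUB1 (−0.31) the least lowered of the 7. HSPBP1 (−0.07), GRPEL2 (−0.02) and the ER exchange factor SIL1 (−0.01) did not pass. Of 14 genes for HSP90 and its cochaperones, 13 were lower and UNC45A was higher, with a median of −0.47. Outside the symbol rule, the ER J protein gene SEC63 was lower (−0.63, SE 0.0452, adjusted p = 1.34e-07), HSCB was lower (−0.35), and GAK (−0.15) did not pass.

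Since HSPA8 fell more than the J-domain transcripts, the ratio of DNAJB1 to HSPA8 normalized counts was compared within each library. This comparison was chosen after the values were seen. On the log2 scale, this ratio was −3.16, −3.10 and −3.14 in DMSO and −1.93, −1.91 and −1.94 in BRL-50481, a rise of 2.31-fold. For DNAJA1 over HSPA8 the rise was 2.62-fold, and for the sum of the 38 J-domain genes over HSPA8 it was 4.16-fold. That sum includes genes for J proteins of the ER and mitochondria, so it does not compare HSPA8 with its own partners alone. An exact two-sided permutation test gave p = 0.1 for each ratio. This is the lowest value it can give with 3 libraries in each group, so it cannot decide. These ratios restate the difference between the falls of HSPA8 and of the J-domain transcripts and are given as a description.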

How the data were processed

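The authors mapped the reads to hg38 (STAR 2.7.1a), assigned them to UCSC genes by strand (htseq-count, reverse) and compared the groups with DESeq2 1.28 (tool versions as in the submitters' processing notes). The deposited signal is a normalized count, that is, reads over the DESeq2 size factor of that library. The deposited mean signal over the libraries, and the authors' own comparison (log2 fold change, its standard error, a statistic score, and the p-value as it stands and adjusted), were not used. All 93906 deposited values correspond to whole reads (tolerance 1e-06 of a read), and these reads were restored for the count tests.

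A gene entered the tests when 3 or more libraries had a normalized count of 4 or more (15246 of 15651 genes). Log2 values with 1 added, a scale that understates changes of low genes, were compared with limma 3.58.1 in R 4.3.3 (eBayes with a trend, group as the only term). The Benjamini-Hochberg adjustment covered all tested genes, and 0.05 was the threshold for a call. On the recovered reads, edgeR 4.0.16 called 4358 genes higher and 4574 lower, and DESeq2 1.42.0 called 4097 and 4356. The fits were tested on simulated counts with known changes. P-values set each group difference against the spread between these libraries, which limma moderates across genes.

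The members and gene lists were chosen with earlier results of these data known. Every member could be named. Values in every library are given for the HSF, BAG and tested HSPB genes and for up to 6 called genes of each DNAJ class with the largest change. Positions and lengths came from GENCODE 44 on hg38, promoter sequences from RefSeq on GRCh38.p14. Older symbols were matched through RefSeq.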

Additional observations from a re-analysis of the deposited data

How the results depend on the processing

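The 16 alternatives comprised edgeR, DESeq2, quantile normalization, median centring, other pseudocounts (0.5 and 4), no filter or a filter on a mean of 20, a loess correction for transcript length and GC content, the replicate number as a block, and leaving out each library. Over all classes, 19 to 27 members were lower and 6 to 11 higher. The counts were 22 lower and 9 higher with edgeR, with DESeq2 and with the replicate block. Same-numbered libraries of the groups deviated together only weakly (correlations of 0.121, 0.104 and 0.0514), so the numbers were not taken as pairs, and the replicate block changed no call of a member. Of the 31 called members, 24 kept their call under every alternative, and 0 changed sign. With the length and GC correction, 11 DNAJC genes were lower in place of 6, 1 DNAJB gene was higher in place of 2, and HSF1 was called higher (0.10, adjusted p = 0.0275), so that 1 HSF gene was higher. Over all genes, this correction called 5485 of 14736 lower, against 4546 of 15246 without it. Under the same correction, DNAJC10 was −0.34 (adjusted p = 1.55e-05), DNAJC18 −0.04, DNAJC5 −0.0092 and BAG6 −0.008. Quantile normalization called 3 BAG genes and 2 HSF genes lower, with HSF4 at −0.37, gave DNAJC21 as 0.0072, and took DNAJC17 to 0.25 (adjusted p = 0.0518). Median centring called 3 BAG genes lower. The cause of these changes was not tested. Leaving out 1 library gave 3 to 4 lower BAG genes, 1 to 2 higher DNAJB genes and 0 to 1 higher genes of the HSP90 list. DNAJB12 lost its call without DMSO replicate 3 or BRL-50481 replicate 3, and DNAJB14, DNAJC2 and DNAJC27 without BRL-50481 replicate 1. DNAJC17 lost it without DMSO replicate 3, BRL-50481 replicate 1 or BRL-50481 replicate 3. The adjusted p-values in these fits lay between 0.0523 and 0.0752. The leave-one-out range spanned 0 for BAG6 (−0.034 to 0.037), DNAJA3 (−0.0081 to 0.056), DNAJC10 (−0.032 to 0.077), DNAJC6 (−0.128 to 0.044), HSF1 (−0.062 to 0.100) and HSPB11 (−0.0082 to 0.096), which were not called. HSPB6, DNAJC28 and DNAJC22 had the fewest reads, which limits what could be detected there.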
